A study of Mus musculus with 20 samples.

Results

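C57BL/6 (B6) is the mouse strain from which the reference genome was made, and its liver was set here against the livers of all 4 other strains of the series. Each strain is represented by 4 male mice with 1 single-colour (Cy3) array of liver RNA per mouse, 20 arrays in all, from animals on a high fat diet (HFD, 45% fat). The B6 mice (animals 9, 10, 11 and 15) were compared with mice of the strains 129P2/OlaHsd (129Ola), C3HeB/FeJ (C3H), NZO/HiBomDife (NZO) and DBA/2J (DBA), none of which carries a transgene in the labels. The sampling time is week 6, given in one label as age. In the labels B6 and 129Ola are the lean strains that resist diabetes, DBA and C3H are susceptible, and NZO is obese as well as susceptible. All strains are inbred, so the 4 mice of a strain share a genome, and p-values measure the spread between mice on a diet that all groups received. No lean-diet group is part of these comparisons.

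A gene was called B6-private when all 4 B6 mice lay above, or all 4 lay below, each of the 16 mice of NZO, DBA, C3H and 129Ola. Of 20696 genes tested, 739 were B6-private (3.57%), 301 with B6 above (1.45%) and 438 with B6 below (2.12%). The size of a difference is the B6 mean minus the mean of the 4 other strain means, on a scale of log2 signal minus the 75th percentile of each array, and its test is limma's with Benjamini-Hochberg adjustment over all genes, called at an adjusted p of 0.05. Order and test use the same values, so the test adds the size and its error to the order and is no second line of evidence. By the test, 6035 genes differed (29.2%), of which 2343 were higher in B6 (11.3%) and 3692 lower (17.8%). All 301 private genes with B6 above and 437 of the 438 with B6 below passed it.

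The arrays were read with 2 extraction protocols. B6, NZO and DBA share one, and C3H and 129Ola share the other, so for those 2 strains the strain and the protocol cannot be told apart. The difference of B6 from NZO and DBA, within its own protocol, is therefore given for the main results. Against NZO and DBA 1787 genes were higher in B6 (8.63%) and 1893 lower (9.15%), and against C3H and 129Ola 3644 were higher (17.6%) and 5945 lower (28.7%). The scale matters for the balance of directions: with the percentile taken over probes above background on all arrays, which moves the median of all genes to 0.08 from -0.05, 3960 genes were higher and 2147 lower in B6 against all strains. The private genes depend on it too. They numbered 522 above and 324 below on that scale, 392 and 372 under quantile normalization, and 398 and 348 by the values the authors deposited. Of the genes private on the scale used here, normexp background correction kept 66.4% of those above and 59.8% of those below, and 197 above and 212 below were private under all 4 scalings run on the scanner signals. B6 livers had 51.9 to 59.1% of probes well above background, against 40.0 to 54.0% in the other 16 livers. Within a strain arrays correlated at 0.972 to 0.993, and no array lay closer to another strain. Hepatocyte transcripts such as Alb (11.12 in B6, against 10.69 to 11.40 as means of the other strains) were at the top of the scale on all 20 arrays, as the tissue label says.

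Inbred strains differ at fixed alleles, so a gene that is silenced, deleted or duplicated in one strain gives a level that every mouse of it shares. B6 sublines are known for several such alleles. The Nnt gene of the J subline carries a deletion that removes nicotinamide nucleotide transhydrogenase, the inner mitochondrial membrane enzyme that makes NADPH from NADH. The p200 gene Ifi202b is known to lack its first exon in B6. B6 also lacks the MHC class II chain encoded by H2-Ea. A microarray probe reads such alleles only through 60 bases, and a probe made from the B6 sequence can bind less well to the transcript of another strain.

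Because so much rests on single probes, the first 30 bases of the probes behind the largest differences are printed here, 5′ to 3′, with their positions in the mm9 build as given with the arrays. The pair for the transcripts CJ206177 and AA414992 on chromosome 13 is shown because their 60-base probes differ at 2 bases, A4G and C24T (CJ206177 base, position from the 5′ end, AA414992 base), set in capitals. Their signals can therefore come from the same transcripts, although both are counted among the private genes. The others have no base in capitals. The Nnt probes printed are the 2 that were B6-private, the brighter first, and their positions are chr13:120124335-120124394 and chr13:120123318-120123377, both on the minus strand.
Cebpe, chr14:55329200-55329259, minus strand: attgggaaggtcgggaccaaatgattctgt
Nuggc, chr14:66267169-66267228, plus strand: ctttcgtctaaagagatgaaaataggcctg
Ifi202b, chr1:175892953-175893982, minus strand, split in the genome: attgacctcaaatgcagatgagtggtttct
Crym, chr7:127329970-127330029, minus strand: cccctattcatgtttgtggttggatagcta
Zfp874a, chr13:67541780-67541839, minus strand: cctgtacctctgtatctgttgttgtggtat
CJ206177, chr13:68137962-68138021, minus strand: ggcAcctactctatcttgggtgaCcttcat
AA414992, chr13:68321651-68321710, plus strand: ggcGcctactctatcttgggtgaTcttcat
Nnt, brighter probe: gtattaagtgcgcttgaatggaatgcaacc
Nnt, dimmer probe: gagacatttttgggtttcagaactggcaga

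Cebpe had the largest difference upwards. It encodes C/EBP epsilon, a transcription factor known from the maturation of granulocytes. Its level was 2.82, 3.20, 2.77 and 2.64 in the 4 B6 livers, against a lowest of -5.94, a median of -4.87 and a highest of -4.13 in the 16 others. Every B6 liver was far above every other. The gene was not above background on any array outside B6, so the fold is a lower bound: at least 89.9-fold higher (7.78 on the log2 scale, SE 0.23, limma adjusted p = 1.02e-13). Its probe passed the filter through B6 alone, and the log2 difference, SE and p-value use unmeasured values of the 16 others. Each fold given as "at least" is such a bound. For genes higher in B6, it sets the mean of B6 against the other arrays raised to their dimmest signals above background. For genes lower in B6, it sets the mean of the other strains against the B6 arrays raised in the same way. Markers of neutrophils, the cells in which Cebpe is known to act, gave 3 of 10 members higher and a median difference of 0.14. That is 30% called, against 29.2% of all genes tested.

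Nuggc, a GTPase of the immune system known from germinal centre B cells, was the mirror image on the same chromosome. It read -5.48, -4.86, -4.62 and -5.35 in B6, against 0.21, 2.47 and 3.01 as the lowest, median and highest of the others. No B6 array was above background and all 16 others were, which makes it at least 84.3-fold lower in B6 (-7.16, SE 0.17, adjusted p = 5.73e-15). 129Ola was the nearest strain, with a mean of 0.58. Cebpe and Nuggc each stand on 1 tested probe.

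Ifi202b, a member of the interferon-inducible Ifi200 family, had the largest difference downwards. Its level was -6.41, -6.20, -6.60 and -6.07 in B6, none above background, against a lowest of -0.03, a median of 1.40 and a highest of 2.33 in the other 16 livers. The gap between the highest B6 mouse and the lowest of the others was 6.04, and the gene was at least 47.6-fold lower in B6 (-7.57, SE 0.12, adjusted p = 1.97e-17). A second probe gave -6.45 and was private too. The 250 bases before the start annotated by RefSeq are printed (chr1:173982845-173983094, minus strand, GRCm38.p6, a B6 assembly). The gene is dark only in the strain whose sequence this is. Because B6 is known to lack the first exon, these bases need not lie before the start used in the other strains. What makes the gene dark in B6 was therefore not tested by searching them. The core of the interferon-stimulated response element, which few windows of RefSeq starts hold, is not in them.
Ifi202b, upstream: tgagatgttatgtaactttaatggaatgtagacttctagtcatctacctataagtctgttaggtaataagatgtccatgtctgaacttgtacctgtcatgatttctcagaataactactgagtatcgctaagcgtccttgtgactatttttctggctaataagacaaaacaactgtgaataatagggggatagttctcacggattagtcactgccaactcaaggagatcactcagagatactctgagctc
TATAAA, the core of the TATA box, was searched on both strands and is not in this window. Of 32851 windows of RefSeq starts, 12.4% hold it.

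Ifi202b lies in the largest run of private genes. Runs were formed from private genes whose probes start within 1000000 bases of the next. The one on chromosome 1 (chr1:173056963-176752797, mm9) held 25 private genes among 75 tested, 18 with B6 above and 7 below. It covers the Slam receptors and the Ifi200 family of nucleic acid sensors. Array transcripts of the same locus count as separate genes: Ifi207 and a private transcript named only by its position have probes that start at the same base. Of the 10 tested genes listed as Ifi200 family and neighbours, 6 were higher and 3 lower in B6, and 7 were private. Ifi211, a family member, read -0.04, 0.22, 0.11 and 0.75 in B6, against -4.63, -3.12 and -1.39 (lowest, median, highest) in the others, a difference of 3.36 (SE 0.24, adjusted p = 1.22e-08). Ifi204, a sensor of cytosolic DNA, was higher by 1.61, Ifi209 by 1.59 and Ifi207 by 0.97. B6 and the others did not overlap for any of these, and against NZO and DBA alone the differences were 2.94, 1.30, 0.95 and 0.61. Mndal was the uneven one: B6 mice read 0.65 to 1.17 and the others -6.05 to 0.41, with means of -0.10 in C3H and -0.06 in 129Ola, while 1 of the 8 NZO and DBA arrays was above background. The family's members share sequence, so a probe may read more than one of them.

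The rest of that run held genes of other kinds. Adamts4, a protease of the extracellular matrix, read -1.45 to -0.79 in B6 and was above background on no other array (at least 5.76-fold higher). Pydc4, a small pyrin-domain gene, was at least 3.29-fold higher. Tagln2, an actin-binding protein, was higher by 1.81 (SE 0.09), Dusp23, a phosphatase, by 2.11 (SE 0.08) and Slamf8, a receptor of myeloid cells, by 2.32 (SE 0.23). Downwards, Apcs, the serum amyloid P component of the acute phase, read 3.44, 3.74, 3.76 and 4.71 in B6, against 5.23, 5.98 and 7.17 (lowest, median, highest) in the others. That is a difference of -2.13 (SE 0.19, adjusted p = 1.76e-07). In its list of 25 acute phase genes 4 were higher and 2 lower, so 24% were called, against 29.2% of all genes tested. Ackr1, the atypical chemokine receptor of endothelium and red cells, fell by 1.36, and Fmn2, an actin nucleator, fell by 2.80, with a dimmer probe at -0.69 that was not private.

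**Figure D1:**
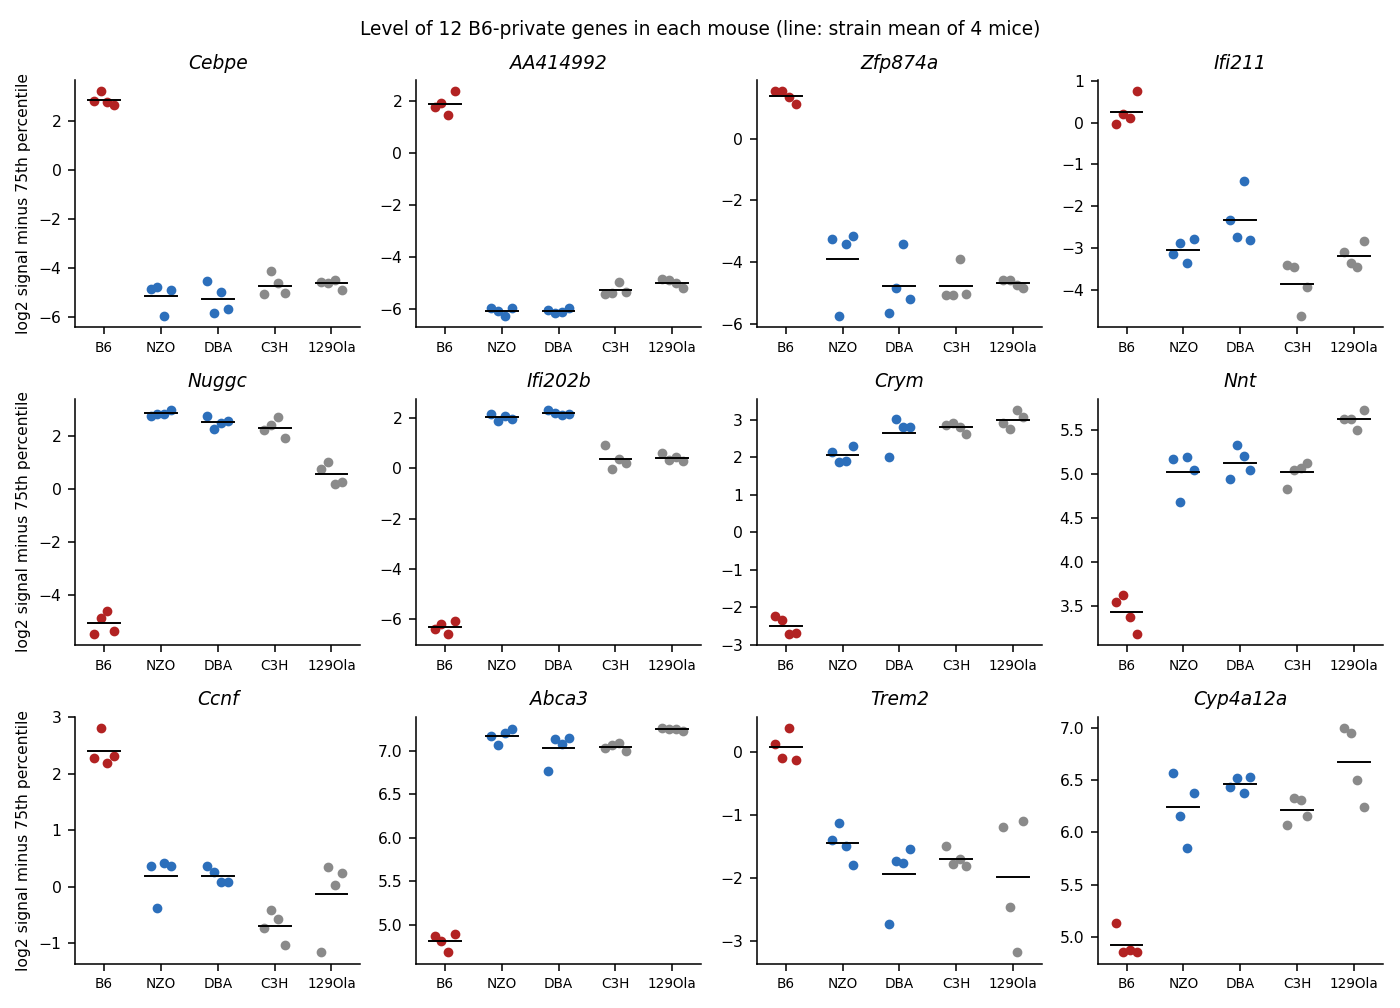
Level of 12 B6-private genes in each of the 20 mice, as log2 signal minus the array's 75th percentile, by strain (red B6, blue NZO and DBA, grey C3H and 129Ola); each dot is a mouse and each line a strain mean of 4 mice, and vertical scales differ. Cebpe lies between 2.64 and 3.20 in B6 and at or below -4.13 in all others, and Nuggc and Ifi202b show the opposite order.

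The zinc finger region of chromosome 13 (chr13:67170680-68368084) held several of the largest increases. Among 33 tested genes 9 were private, 8 with B6 above and 1, Zfp87, below by 0.76. This region is known for a cluster of KRAB zinc finger repressors, which act on DNA through tandem fingers, among them regulators of sex-limited liver genes. Zfp874a read 1.53, 1.53, 1.35 and 1.14 in B6, against -5.74, -4.79 and -3.14 (lowest, median, highest) elsewhere. It was higher by 5.92 (SE 0.40, adjusted p = 5.90e-09), with 4 of the 16 other arrays above background, 3 of them NZO. AA414992 was at 1.76, 1.89, 1.43 and 2.35 in B6 and above background on no other array, at least 45.0-fold higher. CJ206177, whose probe shares nearly all its bases, was higher by 6.59, and LOC101056219 by 6.38. Gm7969 was higher by 6.86 on one probe and 6.44 on another that overlaps it for all but 8 bases, and it was above background in most other livers too, at -4.67 to 0.19 against 4.44 to 5.17 in B6. Transcripts of close copies cannot be told apart by these probes.

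Other large differences lay outside the 5 largest runs. Crym, mu-crystallin, a thyroid hormone binding protein, read -2.24, -2.35, -2.72 and -2.70 in B6, against 1.88, 2.81 and 3.27 (lowest, median, highest). All 20 arrays were above background, so the difference of -5.14 (SE 0.15, adjusted p = 7.83e-14) is measured on both sides. Prelid2 fell by 4.73 (SE 0.13) and 1500011B03Rik by 4.34 (SE 0.16), also on arrays that were above background throughout, although a second, dim probe of 1500011B03Rik gave -0.90 and was not private. Pde6h, the inhibitory subunit of the cone phosphodiesterase, was at least 18.8-fold lower and had a second private probe at -5.52.

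Clec2h, a lectin-like ligand of natural killer receptors, was higher by 5.05 (SE 0.51), with B6 at 1.82 to 2.40 and the others at -5.25 to -0.50, of which NZO was the highest with a mean of -0.88. Rab6b, a GTPase of Golgi transport, was at least 6.40-fold higher, and Fbxo44, an F-box protein of ubiquitin ligases, was higher by 4.34 with a second private probe at 2.73. Some of the large decreases rest partly on signals near background. Ctse, cathepsin E, was dark in B6 and in C3H alike, and NZO averaged -2.53, against 2.11 in DBA and 2.15 in 129Ola, so B6 lies below C3H only in the order of unmeasured values. For Cyp2b10, a phenobarbital-inducible P450, the B6 mouse nearest to the others missed them by 0.08. Of the 23 private genes that were above background on no B6 array, another strain was dark as well for 13. Among private genes with B6 above, 18 were above background on no array of another strain and entered through B6 alone.

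The other large runs mixed small differences in both directions. On chromosome 8 (chr8:71351406-75111073) 24 of 140 tested genes were private, 11 above and 13 below. Ocel1, an occludin-domain gene, read 2.89 to 3.12 in B6, against 4.70 to 5.35 in the others, and fell by 1.98 (SE 0.07, adjusted p = 8.50e-13). Klhl26, a Kelch adaptor, fell by 1.92, and Zfp963 by 2.38. Haus8, a subunit of the augmin complex of the mitotic spindle, was higher by 1.45, and Bst2, the interferon-inducible tetherin, by 0.84. On chromosome 2 (chr2:118754205-121319150) 14 of 67 were private, 5 above and 9 below, with Nusap1, a spindle protein, higher by 1.45 and the splicing factor Mfap1a lower by 0.88 beside its copy Mfap1b, lower by 0.57. A second Mfap1a probe gave -0.11 and was not called.

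Chromosome 17 held 2 of the 5 largest runs. In the first (chr17:23812007-25298407) 13 of 70 genes were private, 5 above and 8 below. Abca3, a phospholipid transporter, read 4.87, 4.81, 4.68 and 4.89 in B6, against 6.76, 7.14 and 7.26 (lowest, median, highest), and fell by 2.31 (SE 0.07, adjusted p = 7.83e-14), with a spread among B6 mice of 0.095 (SD, n = 4). Ccnf, cyclin F, the substrate receptor of a ubiquitin ligase, read 2.19 to 2.81 in B6, against -1.16 to 0.43, and was higher by 2.50 (SE 0.21). Gfer, the sulfhydryl oxidase of mitochondrial import also known as augmenter of liver regeneration, fell by 1.33, and Pkmyt1, a kinase that restrains mitotic entry, was higher by 1.69.

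The second run spans the major histocompatibility complex (chr17:33441423-36302361), where 13 of 164 genes were private (7.93%). Among them Zfp955b and a transcript named only by its position have probes that start at the same base, and both are counted. H2-K1, a classical class I heavy chain, read 8.42, 8.37, 8.38 and 8.56 in B6, against 6.52, 7.92 and 8.17 (lowest, median, highest), a difference of 0.83 (SE 0.07). H2-Ea-ps, the class II alpha chain pseudogene of B6, was dark in B6 and also in C3H and 129Ola, while the 8 NZO and DBA arrays were all above background. The difference of H2-Ea-ps from the mean of the other strains was -2.61. With B6 raised to the dimmest signals above background on its arrays, the reduction was 1.81-fold. That fold is no lower bound, because unmeasured C3H and 129Ola values enter the mean of the other strains. Of 28 tested MHC genes, 10 were higher and 2 lower (median 0.26). Within the protocol of B6 the same list split 6 and 6 (median 0.11), so its balance depends on C3H and 129Ola. These genes are highly polymorphic, and probes can bind one haplotype more than another.

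**Figure D2:**
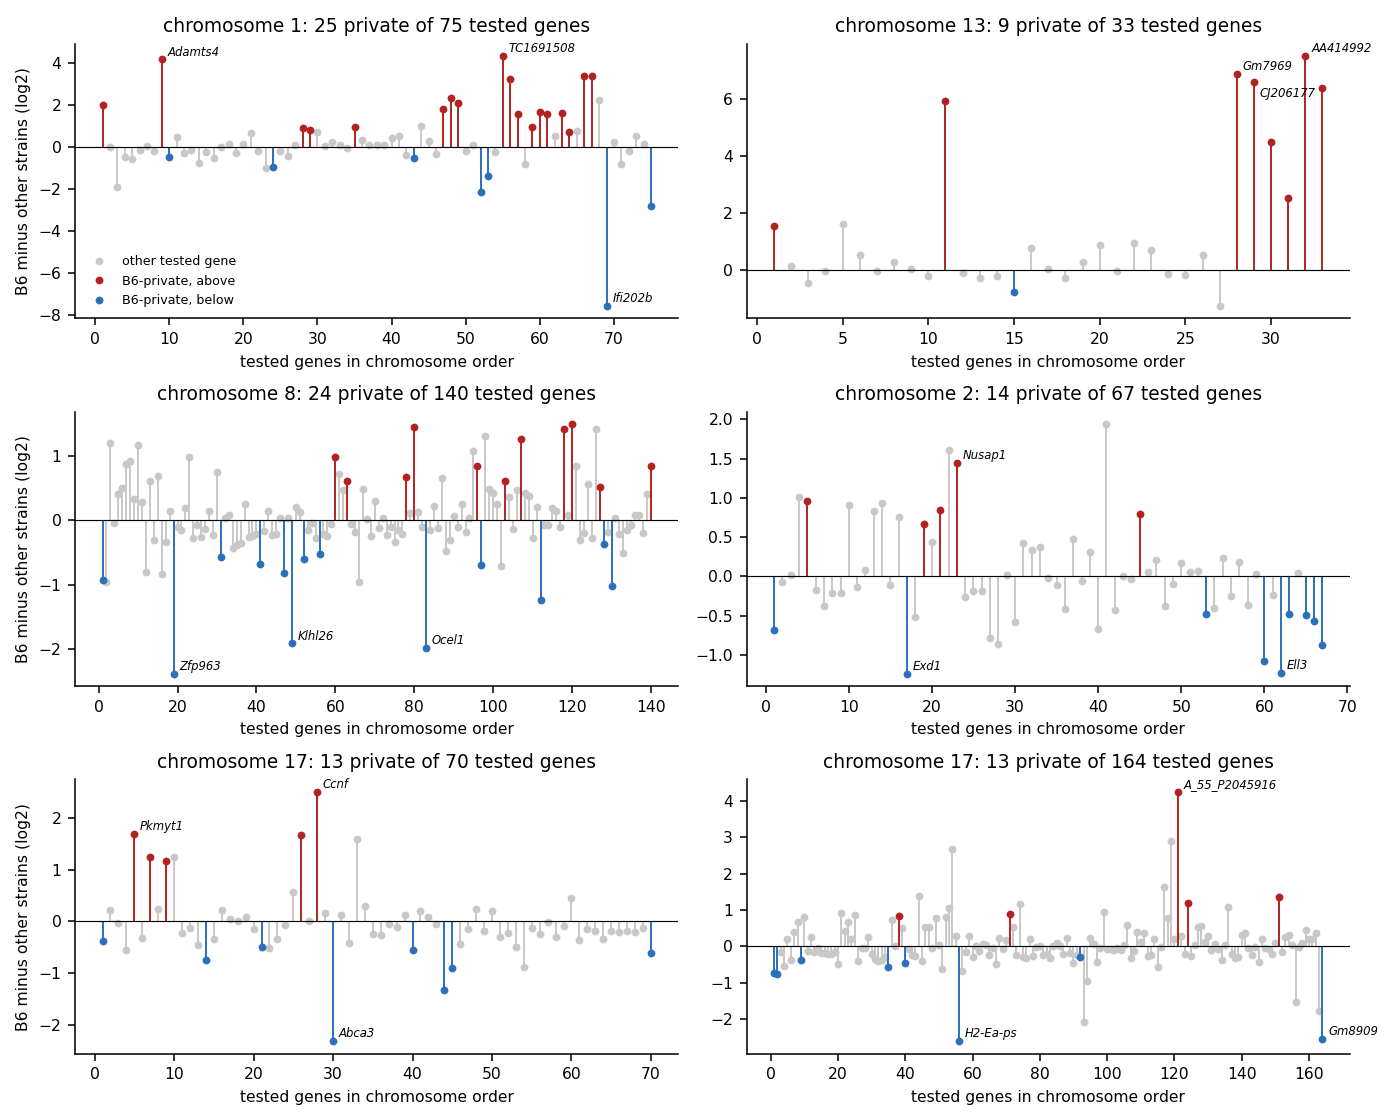
Difference of B6 from the mean of the other strains (log2) for every tested gene in 6 runs of private genes, in chromosome order; red and blue are private genes with B6 above and below, grey are other tested genes, and the 3 largest private differences of each run are named. The chromosome 13 panel rises to 7.47 at AA414992, while the chromosome 8 and chromosome 2 panels stay within 2.38 and 1.45 for private genes.

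In all, 734 private genes had a position, and 503 of them (68.5%) lay in runs of at least 2. There were 72 runs of at least 3. The share of tested genes that were private was highest on chromosome 1 (5.16%) and lowest on chromosome 18 (1.77%). Positions are those of the probes, and the private rule does not use them. With a gap of at least 0.5 between B6 and the nearest other mouse, 86 private genes above and 87 below remained, and 49.4% of those with a position lay in runs. The share depends on how many genes are joined, and none was computed for equal numbers of other tested genes. Whether private genes cluster more than other genes was therefore not tested.

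Many private genes lay close to the nearest other mouse. The median gap to the nearest other mouse was 0.24 for genes with B6 above and 0.16 for those below. The median size of the difference was 1.18 and 0.741 (log2). A difference of at least 1 was seen in 174 and 160 genes, and of at least 2 in 57 and 49. At the edge of the rule, Naaa was inside with a gap of 0.000632 and Nfs1 with 0.000202, while Tnpo2 was outside with a gap of -0.000957. The rule also did not single out B6: by the same rule NZO had 420 private genes above (2.03%) and 398 below (1.92%), and DBA 311 (1.5%) and 370 (1.79%). C3H had 465 (2.25%) and 491 (2.37%), and 129Ola 2531 (12.2%) and 592 (2.86%). The 129Ola excess lies upwards, in the strain with the dimmest arrays.

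Where a private gene had another tested probe, that probe gave a further reading, but not always of other bases. Probes that overlap, as those of Gm7969 and of Enho do, read largely the same sequence. They were counted too, so the shares do not separate an allele under the probe from a change in the transcript. Of 77 such genes with B6 above, another probe was private in the same direction for 37 (48.1%), and was at least called in it for 72.7%. Of 132 with B6 below, the shares were 29.5% and 59.1%. Another probe was called in the opposite direction for 2 genes and 14 genes. The remaining 224 and 306 private genes stand on 1 tested probe, and for them an allele under the probe and a change in the transcript cannot be told apart.

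**Figure D3:**
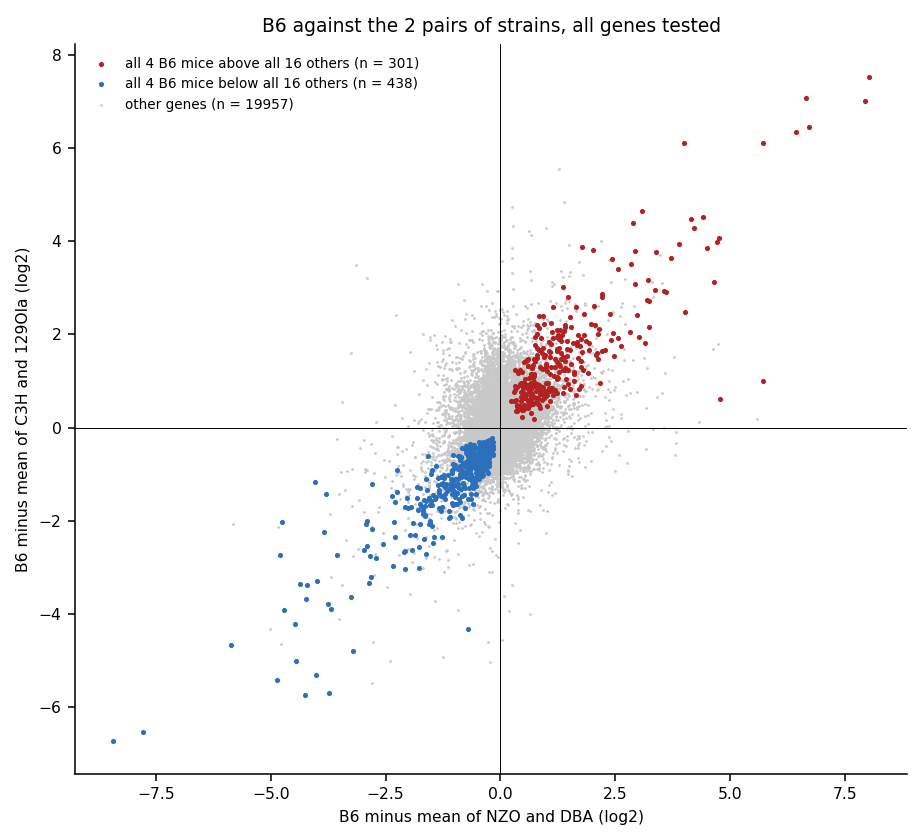
B6 minus the mean of NZO and DBA (x axis, log2) against B6 minus the mean of C3H and 129Ola (y axis, log2) for 20696 genes; red are the 301 genes with all B6 mice above, blue the 438 with all below, grey the rest. By their rule the coloured genes lie in the upper right and the lower left, and both axes use the same 4 B6 mice.

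The private rule is meant to separate a B6 trait from one that B6 shares. It also orders unmeasured values, so genes dark in B6 and in another strain, such as Ctse, can still be private. Relative to the 8 NZO and DBA mice alone, all 4 B6 mice were above in 858 genes (4.15%) and below in 802 (3.88%). Of these, 301 (35.1%) and 438 (54.6%) were also beyond every C3H and 129Ola mouse. Sharing was counted among genes that were not private, were called against NZO and DBA and were above background on every array of the higher strains. Of 20696 genes tested, B6 and 129Ola, the 2 lean and resistant strains, both lay beyond NZO and DBA in 210. The count was 154 for B6 with C3H and 190 for B6 with both, and these 190 are in neither other count. The count with 129Ola was 142 above and 68 below, and with C3H 76 above and 78 below, so it was larger with 129Ola for genes above, where 129Ola also had its many private genes on the dimmest arrays, and not for genes below. Olfr1033, an odorant receptor gene, is one that B6 shares with 129Ola: it read -0.63 to -0.36 in B6, averaged 0.45 in 129Ola, and was above background on no NZO, DBA or C3H array, so the size of its difference is not measured. LOC100046091 and Tmsb15b1, a thymosin, followed the same order, with Tmsb15b1 above background on 2 NZO arrays. Cyp3a44, a female-biased P450, was dark in B6 and 129Ola. Its difference from the mean of the other strains was -3.95. With B6 raised to the dimmest signals above background on its arrays, the reduction was 9.46-fold. That fold is no lower bound, because unmeasured 129Ola values enter the mean of the other strains. The private rule fixes the sign of a gene against NZO and DBA on any scan day, so only sizes can vary there: the medians on the 2 days that include B6, NZO and DBA were 1.05 and 1.02 for genes above and -0.68 and -0.51 for genes below.

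Nnt was lower in B6 but still measured. Its brightest probe read 3.54, 3.63, 3.37 and 3.18 in B6, against 4.68, 5.15 and 5.73 (lowest, median, highest) in the others. The groups were apart by 1.05, and the difference was -1.76 (SE 0.10, adjusted p = 5.40e-10). A second probe gave -3.42 and was private, and the remaining dim probe gave -0.60 (adjusted p = 0.028) and was not. The labels do not name the B6 subline.

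Genes that work beside Nnt in mitochondrial redox balance were listed, 15 tested with Nnt. None was higher and 11 were lower in B6, with a median of -0.29 against -0.05 over all genes. Gsta4, which conjugates lipid aldehydes with glutathione, read 0.99 to 1.57 in B6, against 1.62 to 3.00 (difference -1, SE 0.09), and Aldh4a1, the mitochondrial dehydrogenase of proline breakdown, fell by 0.69. Both were private. The B6 mice averaged 5.87 to 5.95 over the list, against 5.98 to 6.63, but without Nnt itself the 14 remaining genes gave 6.04 to 6.14 in B6, against 6.08 to 6.70, which overlap. Against NZO and DBA 4 of the 15 were lower and Prdx3 higher (median -0.10). Under the percentile taken over probes above background on all arrays, 5 were lower and 1 higher.

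Respiratory chain and ATP synthase subunits followed the same pattern. Of 58, 33 were lower and none higher (median -0.24), yet only 4 were lower against NZO and DBA (median -0.09), while the median against C3H and 129Ola was -0.42. The 4 private members were Ndufb8 of complex I (7.01, 6.90, 7.08 and 6.99 in B6, against 7.31 to 8.10, difference -0.74), Sdhb of complex II (-0.37), Ndufa9 (-0.34) and Atp5g1 (-0.31). Under quantile normalization 7 members were higher and 12 lower. Apart from Ndufb8, these calls were lost in some other settings, among them the scan day as a block, fitted on B6, NZO and DBA alone.

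Fatty acid oxidation genes and targets of Ppara, the nuclear receptor that drives fasting and fat burning in liver, were lower in B6 for 22 of 35 and higher for 1 (median -0.41). Against NZO and DBA, 9 were lower and 1 higher (median -0.16). The count of lower genes against all strains was 12 under quantile normalization and 13 under normexp. With the scan day as a block, fitted on B6, NZO and DBA alone, 5 were lower, beside the 9 against NZO and DBA in the main fit. Cyp4a12a, an omega-hydroxylase of fatty acids, read 5.13, 4.85, 4.87 and 4.85 in B6, against 5.85, 6.38 and 7.00 (lowest, median, highest), and was lower by about the same amount against NZO and DBA (-1.43) as against all (-1.47, SE 0.13). Its neighbour Cyp4a12b, which may share its signal, fell by 1.58. Bdh1, which reduces acetoacetate, fell by 0.44, with a gap of 0.05 to the nearest other mouse. The call of Bdh1 was lost with the scan day as a block and with the animal number as a block. Fgf21, a hormone of fasting, was lower by 1.86, but its adjusted p of 0.047 was lost in 20 of the other settings.

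Female-biased liver genes, set by the sex-specific rhythm of growth hormone, were the list with the largest negative median. In these males 7 of 17 were lower and 1 higher (median -0.91), and 7 were lower against NZO and DBA (median -1.18). Among the 7 members whose probes were above background on all 20 arrays, 1 was lower and 2 were higher. The list means of the mice overlapped, at -1.69 to -1.14 in B6 and -1.22 to 0.45 in the others. Hao2, a peroxisomal hydroxy acid oxidase, was above background on no B6 array, on all 4 NZO arrays and on 4 of the 12 others. Prominent in the list are P450 genes. Of 39 P450 genes of drug metabolism and their regulators, 16 were lower and 7 higher, against 12 and 10 under quantile normalization and 10 and 10 by the authors' deposited values. Cyp2c67 read 6.71 to 7.59 in B6, against 8.15 to 9.13 (difference -1.52, SE 0.14), and Cyp2c68 was lower by 1.11. The 2 genes are close copies. Among the higher ones were Cyp2c55 (2.04) and Cyp2c37 (1.45), named after their values were seen. Ahr, the dioxin receptor, whose B6 allele is known for strong ligand binding, did not pass (-0.45, SE 0.17, adjusted p = 0.055).

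Other metabolic lists moved less. Of 26 genes of cholesterol synthesis and uptake, 8 were lower and 1 higher, none private (median -0.28, and -0.38 against NZO and DBA). Without mouse B6 11, 4 were lower, and under quantile normalization 3 were lower and 2 higher. Hsd17b7, a sterol enzyme, was lower by 0.91, and Acat2 by 0.66. Of 33 glutathione and Nrf2 genes, 10 were lower and 6 higher, against 7 lower and 8 higher under quantile normalization. Mgst3, a microsomal glutathione transferase, was private at 0.36 to 0.80 in B6, against 0.83 to 3.29. Of 30 apolipoprotein genes, 12 were lower and 1 higher, but under quantile normalization 3 were lower and 8 higher. Apoa4, an apolipoprotein of chylomicrons, was lower by 1.46, a call lost with the scan day as a block in B6, NZO and DBA alone. Hsd11b1, which regenerates active glucocorticoid, was private and lower by 0.45 (SE 0.06): it read 7.40, 7.35, 7.40 and 7.38 in B6, against 7.53, 7.80 and 8.19 (lowest, median, highest). Enho, which encodes the secreted peptide adropin, fell by 0.91 and Fga, the fibrinogen alpha chain, by 1.1, both private. A second Fga probe gave 0.34 and was not called. No circadian clock gene of 18 passed in either direction by limma's adjusted p.

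**Figure D4:**
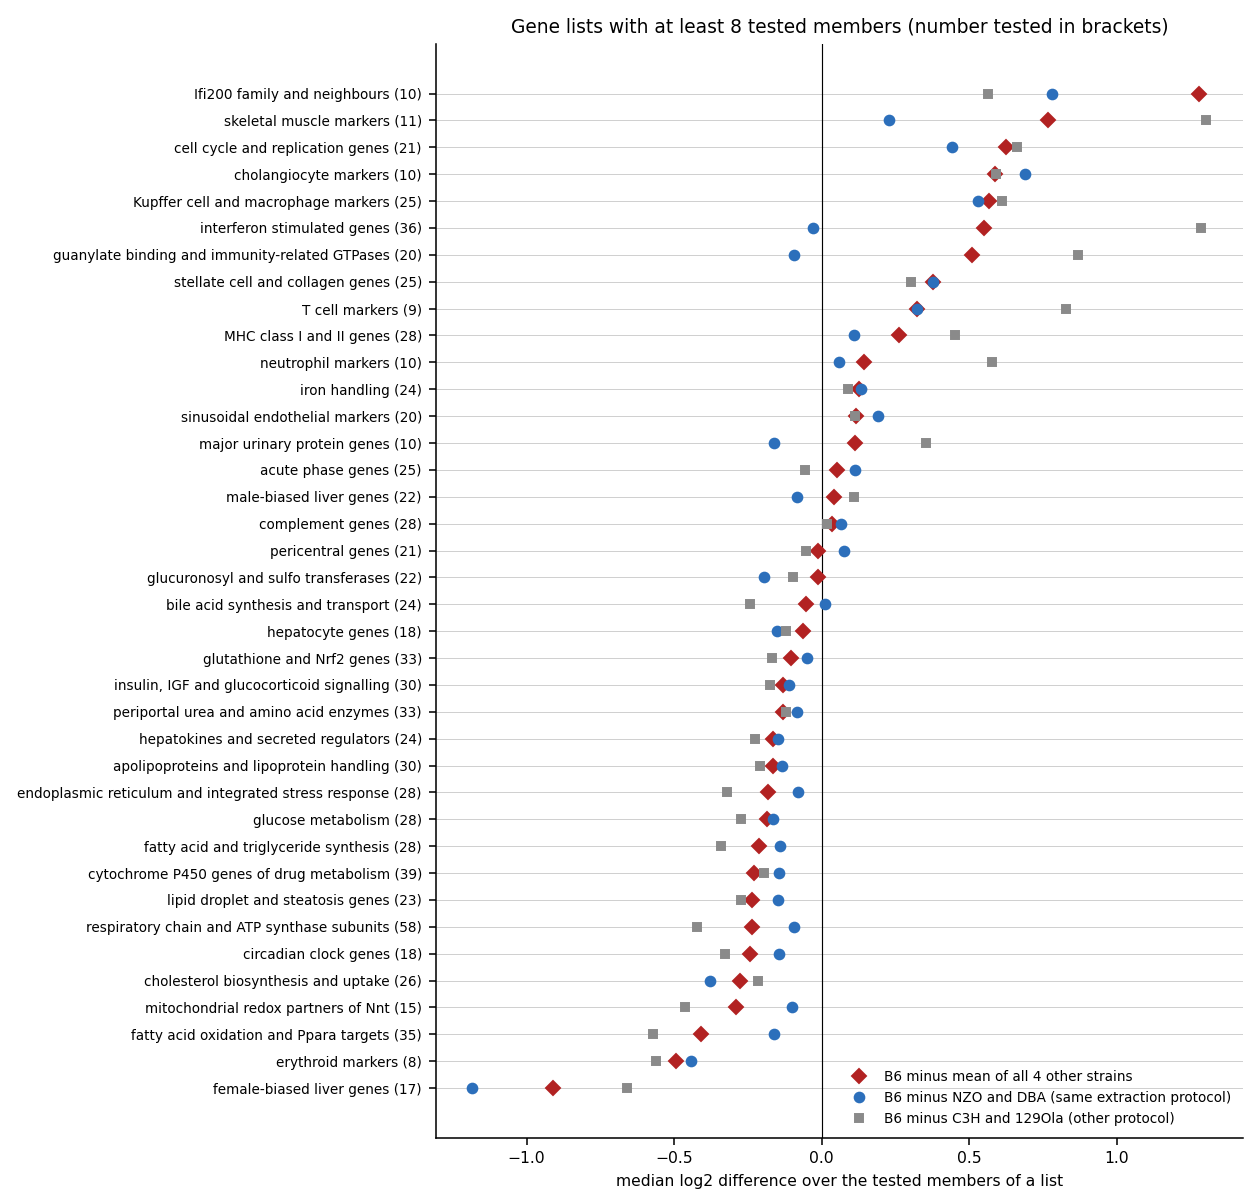
Median log2 difference of B6 over the tested members of each gene list with at least 8 of them, against all 4 other strains (red diamond), NZO and DBA (blue circle) and C3H and 129Ola (grey square); the number of tested members is in brackets. Interferon stimulated genes lie at 0.55, -0.03 and 1.29 on these 3 scales, while Kupffer cell and macrophage markers lie at 0.57, 0.53 and 0.61.

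Markers of macrophages, stellate cells and cholangiocytes were more often higher than lower in B6. Of 25 tested markers of Kupffer cells and other macrophages, the resident phagocytes of the sinusoids, 15 were higher and 2 lower in B6, and 6 were private, all upwards. The median difference was 0.57 against all strains and 0.53 against NZO and DBA, where 12 were higher and 1 lower, and it was 0.66 and 0.35 on the 2 scan days within the protocol. The mean of the list was 2.16 to 2.49 in the 4 B6 mice, against 1.12 to 2.06 in the 16 others, with no overlap. More or fewer cells of a type and more or less RNA per cell cannot be told apart in these bulk samples.

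Trem2, a lipid receptor of macrophages, read 0.12, -0.09, 0.38 and -0.12 in B6, against -3.18, -1.72 and -1.1 (lowest, median, highest). It was higher by 1.84 (SE 0.29, adjusted p = 1.16e-04) and by 1.77 against NZO and DBA. Itgax, the CD11c integrin, was higher by 1.75, Cd52, a surface glycoprotein of leukocytes, by 1.59, and Cd5l, a secreted Kupffer cell product, by 1.08. C1qa and C1qb, chains of the first complement component, were each higher by 0.73, although C1qa did not pass against NZO and DBA alone (0.49, adjusted p = 0.052). The 2 lower members were Cx3cr1 (-0.84) and Slc40a1, the iron exporter (-0.77). Clec4f, which defines Kupffer cells, was higher by 0.71 without being private, and Timd4 did not pass (0.24).

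Stellate cell and collagen genes, products of the cells that store vitamin A and lay down matrix, were higher for 13 of 25 and lower for 2 (median 0.38). Against NZO and DBA 12 were higher and none lower. The B6 mice averaged 1.00 to 1.09 over the list, against 0.40 to 0.97. Spp1, osteopontin, a matrix protein of injured liver and bile ducts, read 1.51, 1.34, 1.83 and 2.28 in B6, against -0.44, 0.43 and 1.03 (lowest, median, highest), and was higher by 1.32 (SE 0.14). Col6a1, a collagen VI chain, was higher by 0.56. Lrat, the enzyme that stores retinol as ester in stellate cells, was higher by 0.85, and Col1a1 by 0.86, both named after their values were seen. Of 10 cholangiocyte markers, of which Spp1 is one, 5 were higher and none lower (median 0.59). Against NZO and DBA 4 were higher and 1 lower (median 0.69).

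Hepatocyte genes gave 4 lower and none higher of 18, with a median of -0.06 beside -0.05 over all genes, but 1 lower and 2 higher under quantile normalization, under normexp and by the authors' deposited values. Sinusoidal endothelial markers gave 4 higher and 1 lower of 20. The lower one was Stab2, a scavenger receptor (-0.78, private on its brightest probe, but not called as the mean of its 3 probes). In the main fit 22.2% of the hepatocyte genes and 25% of the endothelial markers were called, against 29.2% of all genes tested. T cell markers gave 4 higher and 1 lower of 9. Erythroid markers gave 3 lower of 8. Alas2, the first enzyme of heme synthesis in red cell precursors, was private at 5.32 to 5.65 in B6, against 5.85 to 6.56, and Hbb-b2 was lower by 1.90. The part of blood content in the other results was not tested.

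**Figure D5:**
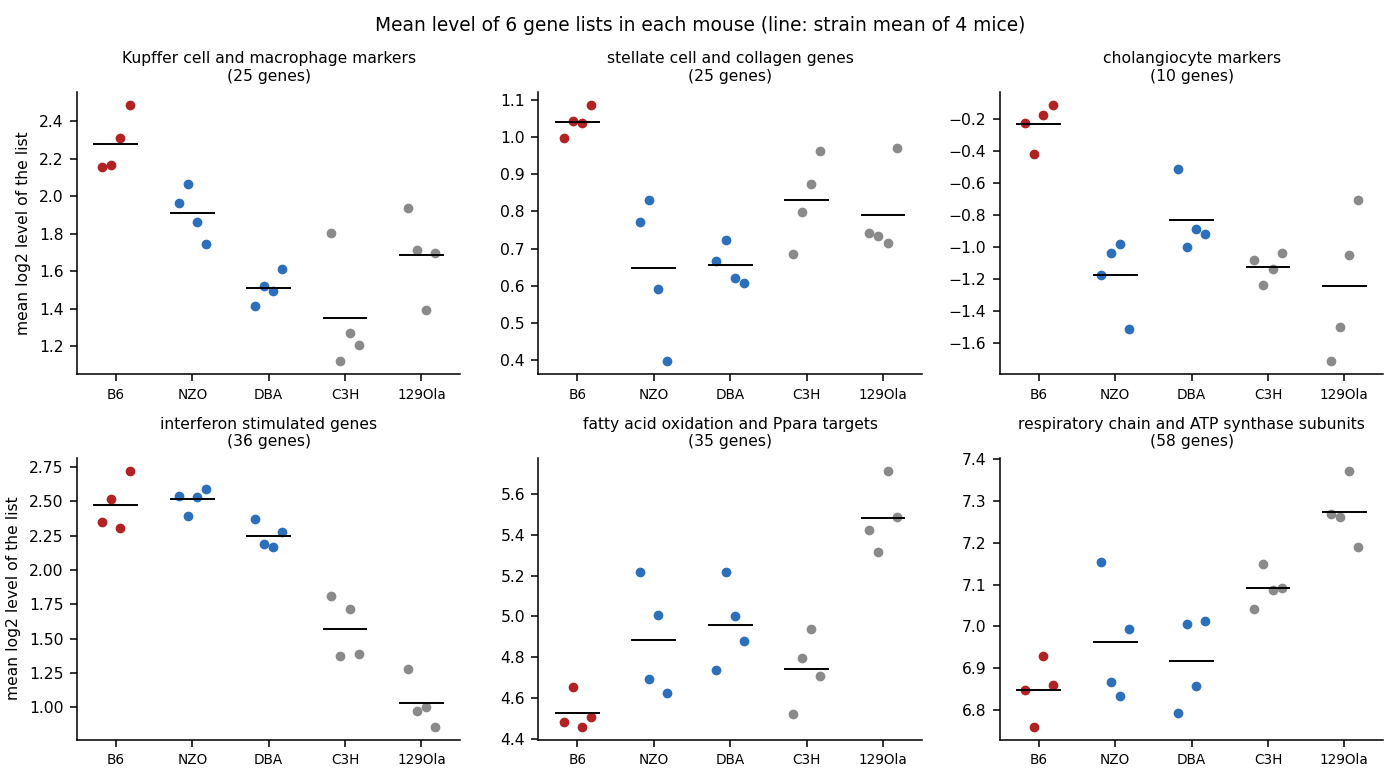
Mean log2 level of 6 gene lists in each mouse, by strain (red B6, blue NZO and DBA, grey C3H and 129Ola); each dot is a mouse and each line a strain mean of 4 mice, and vertical scales differ. B6 lies above all others for the macrophage, stellate and cholangiocyte lists, and among NZO and DBA for interferon stimulated genes.

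Interferon stimulated genes show why the private rule matters. Of 36, 22 were higher in B6 and 1 lower, but against NZO and DBA 4 were higher and 6 lower. The median of 0.55 against all strains was made of -0.03 against NZO and DBA and 1.29 against C3H and 129Ola, which share the other extraction protocol. Of the 36, 3 were private, all with B6 above, beside 1.45% of all genes tested that were private with B6 above. Ifi27l2b, a mitochondrial interferon-inducible protein, read 0.91, 1.11, 1.1 and 1.80 in B6, against -5.98 to 0.59, and was dark in NZO, so most of its 3.25 comes from that strain. Bst2 was higher by 0.84 and Trim30a, a regulator of inflammasome signalling, by 0.99. Trim30a lies in a run on chromosome 7 (chr7:111412427-111620864) where all 6 private genes among 10 tested had B6 above, among them Trim5 (2.18) and Trim12a (3.87).

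Guanylate binding proteins and related GTPases, effectors of interferon gamma, behaved likewise: 11 of 20 were higher and 3 lower, against 2 and 4 within the protocol. Gvin1, a very large inducible GTPase, was private and higher by 1.67, and by 1.1 against NZO and DBA. Of 21 cell cycle genes 11 were higher and 1 lower (median 0.63), but 3 and 1 against NZO and DBA. The lower one was Mcm3, a subunit of the replicative helicase, private at -0.01 to 0.23 in B6, against 0.47 to 1.5 on its brighter probe, while its other probe was private in the opposite direction (0.90). Hc, complement C5, was higher by 0.60 and by 1.27 against NZO and DBA, and was not private.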

How the data were processed

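The processed intensity deposited for each array came from Agilent Feature Extraction, per the file headers (version 11.0.1.1 for B6, NZO and DBA, 11.5.1.1 for C3H and 129Ola, while the submitters' processing notes name 9.1), background-subtracted and detrended by the authors' scanner software and not normalized between arrays. The mean spot and local background intensity served as an alternative, as did the authors' series value table, deposited on a linear intensity scale (37892 probes, equal distributions, its offset unknown). The deposited flags for spots well above background are other values of 0 or 1.

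Control spots (3671 of 62976) and outlier spots (96 to 186 per array) were left out. The log2 of the deposited intensity minus each array's 75th percentile was used. Probes well above background on all 4 arrays of a strain entered (28432 probes), and the brightest one stood for each of 20696 genes. Names come from RefSeq (GRCm38.p6) for 27726 of 29550 probes with an accession, otherwise from the files. Strain means over the 20 arrays were fitted with limma 3.58.1 in R 4.3.3 (17.1 total degrees of freedom). The code was tested on simulated data. The number of arrays limits the precision. Signal over background limits it for dim genes.

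Members, gene lists and tests were chosen with earlier results of these data known. Genes to name were drawn, with some not reported here, from the 12 largest private differences each way, private members of each list (otherwise up to 3 called members), Nnt, Ifi202b, Mndal, Cebpe, Nuggc, Hc and Ahr, private genes of the 5 largest runs, the 5 widest gaps each way, and up to 5 genes shared with C3H or 129Ola. Chromosome 13, 14 and 7 runs and a few marked genes were added after their values were seen. Animal numbers shared between strains did not pair the mice (correlations of deviations from -0.342 to 0.379). Other scalings, filters, probe rules, blocks and left-out mice were tried.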

Additional observations from a re-analysis of the deposited data

Results flagged for a closer look

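Among the 4 mice of a strain, 1 stood apart from the other 3 by Dixon's criterion in 6 of 180 sets examined. Named genes were examined in B6 only and list means in every strain, so most sets were of B6 mice. Chance gives about 1 in 20. Mouse B6 15 was apart for Itgax (-1, the other B6 mice -1.76 to -1.72), for C1qb (3.91, the others 3.28 to 3.32), for Hbb-b2 (3.44, the others 3.79 to 3.85) and for the mean of the guanylate binding and immunity-related GTPases (1.59, the others 1.04 to 1.1). Mouse B6 9 was apart for Cyp4a12a (5.13, the others 4.85 to 4.87). Mouse 129Ola 9 was apart for the mean of stellate cell and collagen genes (0.97, the others 0.72 to 0.74). Without B6 15, 12 macrophage markers and 9 of the GTPases were higher in B6, against 15 and 11 with it.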

How the results depend on the processing

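Counts of genes higher and lower in B6 are given in that order. With the percentile of those probes that were bright everywhere they were 3960 and 2147 against all strains and 5685 and 3473 against C3H and 129Ola, with 522 private genes above and 324 below. With normexp 64.2% of private genes lay in runs. By the values the authors deposited for the series, genes lower against all strains numbered 2452. With no filter on dim probes 8504 were lower against all strains and 12839 against C3H and 129Ola. With probes above background on all 20 arrays, which tests fewer genes, 1541 were higher against all strains and 2340 against C3H and 129Ola, with 182 private above and 63.2% in runs. Within the extraction protocol of B6 1893 were lower, 858 lay above and 802 below all NZO and DBA mice, and 81.6% lay in runs. At an adjusted p of 0.01 the counts were 1426 and 2363 against all strains and 1131 and 1234 against NZO and DBA. At a difference of at least 1 they were 634 and 435 against all strains, 622 and 532 against NZO and DBA, and 1359 and 650 against C3H and 129Ola. A gap of at least 0.5 left 86 private genes above and 87 below, 49.4% in runs. With the replicate block on animal number, which leaves 5 residual degrees of freedom, they were 642 and 707, 712 and 735, and 1388 and 1865 for these 3 comparisons. Leaving out 1 mouse gave 1751 to 2548 higher and 2882 to 4133 lower against all strains, and 68.3 to 75.5% of private genes in runs. Mcm3 reversed to 0.00511 as the mean of its probes. Of 118 named genes called, 115 kept the call under quantile normalization, 111 under normexp and 93 with the replicate block. For B6 against NZO and DBA 113 kept it, and 106 with scan day as a block in these strains alone. Other causes were not tested. Signal near background limits the dim genes.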
